A study of Mus musculus with 7 samples.

Results

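The small leucine-rich proteoglycans are secreted matrix proteins, and 10 of their genes were followed here: Dcn, Bgn, Lum, Fmod, Omd, Ogn, Aspn, Prelp, Podn and Kera. They were chosen by gene symbol alone, as the rows of the deposited count tables whose Ensembl identifier maps to these symbols, which gave 10 of 53801 genes. RNA came from bone marrow mesenchymal stromal cells of male C57BL/6 mice, 8 weeks old when treatment began, without any genetic modification named in the labels. The FAPi group comprised 4 mice dosed at 500 µg/kg with a blocker of FAP, the fibroblast activation protein, a serine protease of the stromal cell surface. The DPBS group comprised 3 mice given the vehicle, a phosphate-buffered saline. Both were given as 100 µl every day for 35 days by intraperitoneal injection. Which compound served as the inhibitor is not stated in the labels. About 7000 live cells per sample were sorted from limb bones by surface Pdgfra, after exclusion of cells bearing CD45, Ter119 or Tie2, so the values describe that gate and not the whole marrow. The comparison asks how the stromal transcriptome differs after FAP inhibition.

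Proteins of this family share a core of leucine-rich repeats that binds collagen and shapes fibril assembly, and most carry chondroitin, dermatan or keratan sulfate chains. Several also bind growth factors of the TGF-beta family or receptors of innate immunity, and biglycan and osteoadherin are known components of bone matrix. The family is divided by sequence into classes. Decorin, biglycan and asporin (Dcn, Bgn, Aspn) belong to class I, and lumican, fibromodulin, osteoadherin, PRELP and keratocan (Lum, Fmod, Omd, Prelp, Kera) to class II. Osteoglycin (Ogn) belongs to class III and podocan (Podn) to class V.

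Of the 10 genes, 8 lie in 3 groups on the mouse genome (mm10, GENCODE M21). Dcn (chromosome 10, 97479609 to 97518143), Lum (97565128 to 97572703) and Kera (97606879 to 97613692) follow each other on 1 strand. Aspn (chromosome 13, 49544443 to 49567565), Omd (49582462 to 49592822) and Ogn (49608046 to 49624501) also share a strand, with gaps of 14896 and 15223 bases. Prelp (133910304 to 133921414) and Fmod (134037254 to 134048277) lie 115839 bases apart on opposite strands of chromosome 1. Bgn is on chromosome X (73483602 to 73495933) and Podn on chromosome 4 (108014791 to 108096445). The genes of the chromosome 13 group lie within Cenpp, which runs on the other strand, but only 7 bases of Aspn exons overlap exons of Cenpp. Prelp shares 350 exon bases with the antisense gene Gm15851, which is listed at 0 counts in all 7 libraries.

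The sequence before the start of 4 of these genes is shown, because Bgn was the most abundant and, over the 7 libraries, least variable member, Aspn the most variable, and Ogn and Omd are its neighbours. Each run is the 250 bases before the start in the RefSeq promoter table (GRCm38.p6), 5′ to 3′ on the strand of the gene. Promoters were found in that table for 8 of the 10 genes. Capitals mark matches, on either strand, to the TATA box TATAAA, the CCAAT box CCAAT, the E-box CANNTG, the RUNX core TGTGGT and the AP-1 site TGANTCA. The regions are chrX:73483351-73483600 for Bgn, chr13:49607765-49608014 for Ogn, chr13:49582212-49582461 for Omd and chr13:49544193-49544442 for Aspn, all on the plus strand.
Bgn: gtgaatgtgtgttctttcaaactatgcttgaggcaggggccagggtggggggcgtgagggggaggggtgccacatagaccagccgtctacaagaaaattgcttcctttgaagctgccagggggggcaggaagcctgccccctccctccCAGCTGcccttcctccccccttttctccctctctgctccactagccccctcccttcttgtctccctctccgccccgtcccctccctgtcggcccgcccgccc
Ogn: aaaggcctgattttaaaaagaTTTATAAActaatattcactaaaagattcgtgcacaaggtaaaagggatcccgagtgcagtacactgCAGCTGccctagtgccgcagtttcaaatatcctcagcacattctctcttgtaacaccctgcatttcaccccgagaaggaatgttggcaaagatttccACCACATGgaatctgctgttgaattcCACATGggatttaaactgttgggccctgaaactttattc
Omd: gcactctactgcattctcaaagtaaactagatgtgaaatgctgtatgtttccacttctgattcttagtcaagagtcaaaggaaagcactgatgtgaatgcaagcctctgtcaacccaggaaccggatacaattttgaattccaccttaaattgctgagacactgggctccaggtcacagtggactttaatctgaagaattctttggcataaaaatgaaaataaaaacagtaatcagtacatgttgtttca
Aspn: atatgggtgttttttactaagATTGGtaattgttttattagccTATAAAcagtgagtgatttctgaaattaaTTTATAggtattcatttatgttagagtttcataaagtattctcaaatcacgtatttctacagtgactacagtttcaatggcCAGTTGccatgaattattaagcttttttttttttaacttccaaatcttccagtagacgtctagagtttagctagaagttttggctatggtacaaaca
The share of G and C was 64.4% before Bgn, 42% before Ogn, 38.4% before Omd and 30% before Aspn, against a median of 52.4% over 32851 promoters of the same length. Bgn held 1 E-box. Ogn held 2 overlapping TATA matches, 3 E-boxes and 1 RUNX core that overlaps an E-box. Aspn held 2 TATA matches, 1 CCAAT box and 1 E-box, and none of the 5 motifs was in the window of Omd. Among all promoters in the table, 12.4% held the TATA box, 33.8% the CCAAT box, 66.2% the E-box, 14% the RUNX core and 6.75% the AP-1 site. A match describes the letters only, and does not show that a factor binds there.

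Total counts ranged from 7492570 to 10569690 per library, and 3 counts, taken as the floor of detection, correspond to 0.284 to 0.4 CPM, the count scaled to a common library size. Markers of reticular marrow stroma were present in every library, with Pdgfra at 317 to 440 CPM and all 7 listed markers detected. Cxcl12, the chemokine that retains hematopoietic stem cells, had the highest mean of that list and Lepr the next. Markers of other cells differed between libraries. The summed erythroid markers (8 genes) ran from 1662 to 15220 CPM in DPBS and from 1541 to 3074 CPM in FAPi libraries, highest in DPBS replicate 2. The 10 neutrophil markers summed to 655 to 2830 CPM in DPBS and 194 to 617 CPM in FAPi libraries, with Ly6g at 0. The 10 markers of fibroblasts, periosteum and tendon summed to 112 to 132 CPM in DPBS and 56 to 182 CPM in FAPi libraries, with Scx at 0. FAPi replicate 3 had the highest sum, and 2 genes of that list, singled out after their values were seen, were high in it. They are Dpt (dermatopontin) at 60.1 CPM, against 2.33 to 8.79 CPM in the other 6 libraries, and Tnmd (tenomodulin, a tendon marker) at 5.01 CPM against 0 to 0.259 CPM. Of the other genes detected, Mkx and Postn were also highest in that library, and Ly6a, Cd34, Clec3b, Thbs4 and Pi16 were not.

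The family formed a steep and largely stable order of transcript levels in these cells. Compared per length, as CPM per kilobase of exon, Bgn was highest, followed by Dcn, Ogn, Prelp, Lum, Omd, Podn, Fmod, Aspn and, at the floor, Kera. The mean over the 7 libraries was 255.5 for Bgn, 143 for Dcn, 108 for Ogn, 63.6 for Prelp and 41.7 for Lum. It was 12.2 for Omd, 11.97 for Podn, 6.81 for Fmod, 6.42 for Aspn and 0.157 for Kera. Bgn lay above 98.7%, Dcn above 97.7% and Ogn above 96.8% of the 12930 genes that passed the filter on low counts, and Aspn above 59.8%. In all 7 libraries Bgn exceeded Dcn, Ogn exceeded Prelp, Lum exceeded Omd, Podn exceeded Fmod and Aspn exceeded Kera. Dcn exceeded Ogn, and Prelp exceeded Lum, in 6 of 7. The order of Omd and Podn held in 5 libraries and that of Fmod and Aspn in 4, so neither pair differed beyond its spread. With the longest transcript as length, the mean of Bgn became 584.5, and Podn, at 14.05, stood above Omd.

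**Figure D1:**
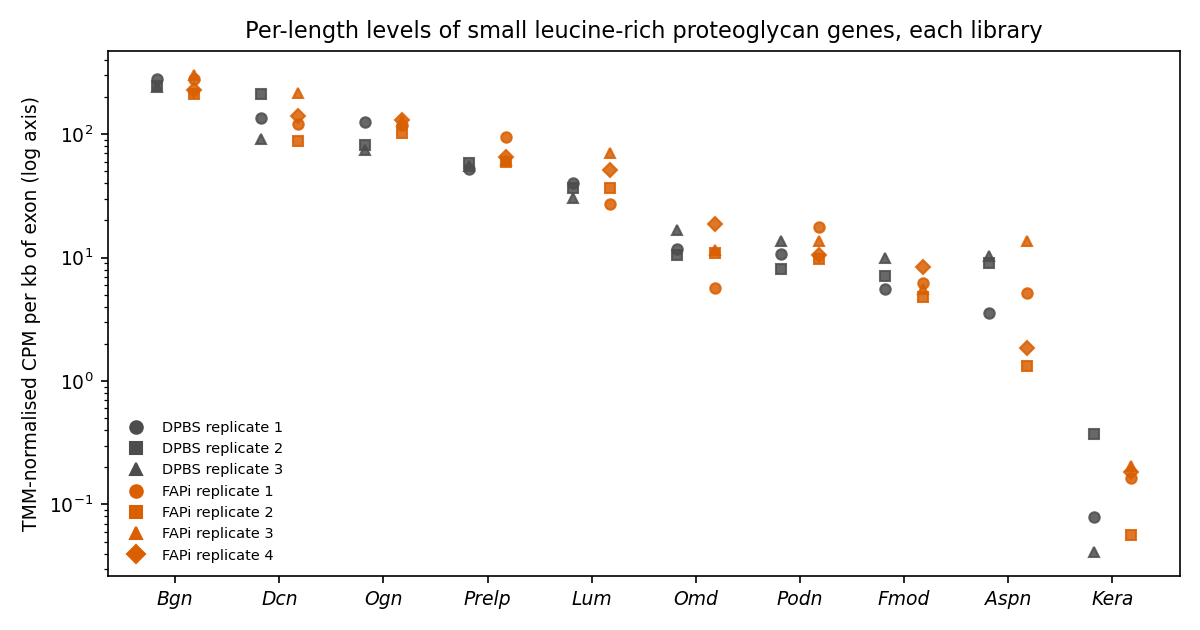
Per-length levels of the 10 genes in each library, as TMM-normalised CPM per kilobase of exon on a log axis, with DPBS libraries in grey and FAPi libraries in orange. The means fall from 255.5 for Bgn to 6.42 for Aspn and 0.157 for Kera, and the groups overlap for every gene but Prelp.

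Class I genes held most of the summed per-length level of the 10 genes in every library. Of the summed per-length levels they took 65.4 ± 3.78% in DPBS (SD over 3 libraries) and 59.6 ± 3.77% in FAPi mice (SD over 4 libraries). Class II took 18 ± 2.35% and 20.3 ± 1.72%, Ogn of class III 14.9 ± 3.44% and 18.1 ± 2.09%, and Podn of class V 1.77 ± 0.655% and 1.93 ± 0.461%. The groups overlapped for each class. These shares depend on the length used and on the 10 genes chosen, which leave out Podnl1 of podocan's class. With the longest transcript as length the mean of Bgn rose from 255.5 to 584.5, while that of Ogn stayed at 108.4. The shares were not computed with that length. Together the 10 genes took 0.329 ± 0.0597% of all counts in DPBS and 0.3025 ± 0.0759% in FAPi libraries. The lowest share was 0.205% (95% Wilson interval 0.202 to 0.208%) in FAPi replicate 2, and the highest was 0.384% (0.38 to 0.388%) in FAPi replicate 3. These intervals cover counting error only.

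No member differed between FAPi and DPBS mice by a margin larger than the spread between libraries. Of the 10 genes, 9 passed the filter on low counts, 4 with a higher and 5 with a lower estimate in FAPi mice, and 49.4% of all tested genes had a lower estimate. In edgeR's quasi-likelihood test, adjusted over all 12930 genes at a threshold of 0.05, 0 of the 9 were called, as were 0% of all genes tested. At an unadjusted p under 0.05 there were 0 of the 9 members, against 8.14% of all genes (4.45% higher and 3.69% lower in FAPi mice). DESeq2 called 1.04% of all genes and, like limma voom and limma on the deposited CPM, 0 members. The median log2 difference (FAPi minus DPBS) was -0.01 over the 9 members and 0.01 over all tested genes, with members between -0.47 and 0.38. The groups did not overlap at 1 of the 9 members, Prelp, or 11.1%, against 7.34% of all genes (3.39% with FAPi higher and 3.95% with FAPi lower). A miss of the threshold does not show that levels were equal, and the 95% intervals below give the differences the data allow. In sorted bulk samples, fewer cells of a type and less RNA per cell cannot be told apart. The labels give numbers of mice but no cage, litter or preparation day, so the tests measure only the spread between these libraries.

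**Figure D2:**
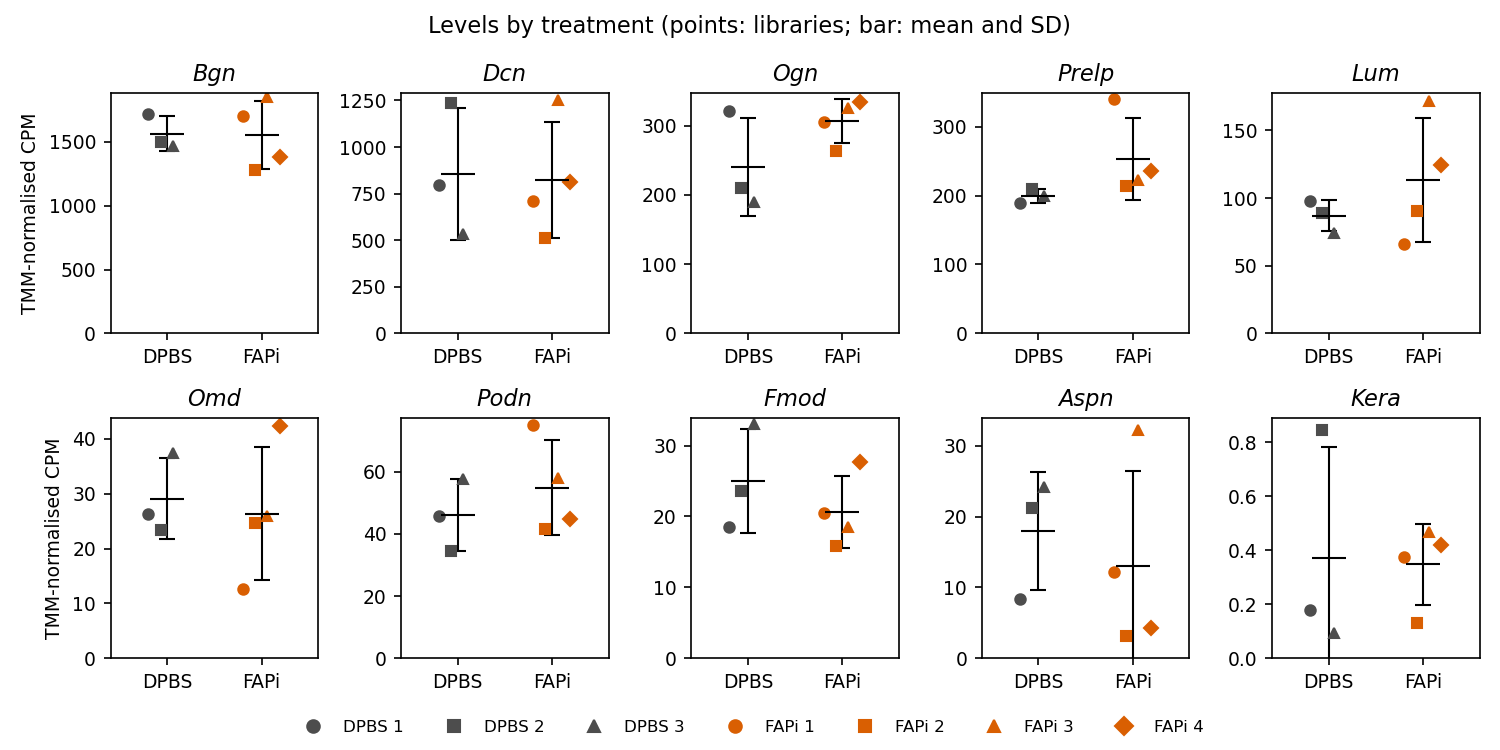
TMM-normalised CPM of each gene in DPBS (grey, n = 3) and FAPi (orange, n = 4) libraries on linear axes that start at 0, with the mean and SD as a black bar, cut at 0 where the SD exceeds the mean. Prelp shows the 1 pair of groups that do not overlap, with DPBS at 189 to 210.1 CPM and FAPi at 213.5 to 340.4 CPM.

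Among class I genes, biglycan was abundant and even. Bgn, which encodes a core protein with a pair of chondroitin or dermatan sulfate chains, had 1721, 1498 and 1471 CPM in DPBS replicates 1 to 3. In FAPi replicates 1 to 4 it had 1705, 1278, 1851 and 1384 CPM. The FAPi values enclose the DPBS values, with FAPi replicate 3 highest and FAPi replicate 2 lowest. The log2 difference was -0.01 ± 0.21 (SE), with a 95% interval of -0.47 to 0.46 (adjusted p = 0.997, edgeR). When 1 library was left out in turn it lay between -0.10 and 0.06.

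Decorin varied more. Dcn, whose product binds collagen fibrils and TGF-beta, had 794, 1236 and 536 CPM in DPBS and 709, 513, 1250 and 814 CPM in FAPi libraries. DPBS replicate 2 and FAPi replicate 3 were high, DPBS replicate 3 and FAPi replicate 2 low, and the groups overlapped fully. The log2 difference was -0.06 ± 0.35, with an interval of -0.83 to 0.71 (adjusted p = 0.987, edgeR). It ranged from -0.33 without FAPi replicate 3 to 0.30 without DPBS replicate 2, and its sign also turned without FAPi replicate 1 or 2. DPBS replicate 2 had the highest erythroid and neutrophil sums, and FAPi replicate 1 the highest B cell sum. With the mean of these blood markers as a covariate the log2 difference of Dcn was 0.35. The part of blood cells in it was not tested.

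Asporin was the least even member. Aspn encodes a class I protein that has a run of aspartates and can bind calcium and TGF-beta. Its level was 8.42, 21.2 and 24.2 CPM in DPBS libraries. In FAPi libraries it had 12.2, 3.10 and 32.3 CPM in replicates 1 to 3 and 4.33 CPM in replicate 4. FAPi replicate 3 was the highest of the 7 libraries and FAPi replicates 2 and 4 the lowest, a 10.4-fold range that lies within 1 group. The log2 difference was -0.47 ± 0.79, with an interval of -2.22 to 1.29 (adjusted p = 0.928, edgeR). Leaving out 1 library gave values from -1.45, without FAPi replicate 3, where Dpt and Tnmd were also highest, to -0.15, without FAPi replicate 2. Whether Aspn varied with Dpt and Tnmd was not tested.

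Class II genes fell on both sides of no change. Prelp encodes a matrix protein with a basic, heparin-binding end. Its level was 189, 210.1 and 199 CPM in DPBS and 340.4, 213.5, 222 and 235 CPM in FAPi libraries. Every FAPi value lay above every DPBS value, by the least in FAPi replicate 2 and by the most in FAPi replicate 1. The log2 difference was 0.34 ± 0.25, with an interval of -0.21 to 0.90 (adjusted p = 0.769, edgeR). An exact permutation test on CPM, two-sided, gave p = 0.114, and the smallest p this design allows is 0.0286. Leaving out 1 library in turn gave 0.16 (without FAPi replicate 1) to 0.40.

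Lum, whose keratan sulfate proteoglycan lumican regulates fibril diameter, had 97.6, 89 and 74.5 CPM in DPBS libraries. The FAPi libraries had 66.2, 90.3, 172 and 124 CPM. FAPi replicates 3 and 4 lay above the DPBS values and FAPi replicate 1 below them. FAPi minus DPBS gave 0.38 ± 0.35 on the log2 scale, with an interval of -0.40 to 1.16 (adjusted p = 0.835, edgeR), and 0.11 (without FAPi replicate 3) to 0.57 (without FAPi replicate 1) when 1 library was left out.

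Fmod encodes fibromodulin, which competes with lumican for a site on collagen. Its level was 18.5, 23.6 and 33 CPM in DPBS and 20.5, 15.9, 18.5 and 27.6 CPM in FAPi libraries. DPBS replicate 3 was highest, and the other DPBS values lay within the FAPi range. On the log2 scale the difference was -0.28 ± 0.43, with an interval of -1.23 to 0.68 (adjusted p = 0.921, edgeR), and -0.46 (without DPBS replicate 1) to -0.03 (without DPBS replicate 3) when 1 library was left out.

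Omd encodes osteoadherin, a mineral-binding protein of bone. It had 26.3, 23.4 and 37.4 CPM in DPBS and 12.7, 24.7, 25.9 and 42.3 CPM in FAPi libraries. The lowest and the highest value were both in FAPi mice. For Omd the log2 difference was -0.14 ± 0.47, with an interval of -1.18 to 0.90 (adjusted p = 0.975, edgeR), and turned to 0.09 without FAPi replicate 1 and to 0.08 without DPBS replicate 3. The 9 osteoblast and osteocyte markers, led by Ibsp and Spp1, summed to 15850 to 27390 CPM in DPBS and 14090 to 24960 CPM in FAPi libraries, with Sost at 0. That sum was lowest in FAPi replicate 1 and highest in DPBS replicate 3, where Omd was lowest and second highest. It was alike in FAPi replicates 2 and 4 and DPBS replicate 2 (24960, 24950 and 24690 CPM), where Omd had 24.7, 42.3 and 23.4 CPM. The part of that sum in the values of Omd was not tested.

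Kera, the keratan sulfate proteoglycan of the cornea, was at the floor. It had 2, 8 and 1 counts in DPBS and 3, 1, 4 and 3 counts in FAPi libraries and did not pass the filter. No fold change or test is given for it.

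Ogn and Podn, of the other classes, had higher means in FAPi mice but did not pass the test. Ogn encodes osteoglycin, also called mimecan, a protein isolated from bone. It had 321, 210.0 and 190.1 CPM in DPBS and 304, 263, 325 and 333 CPM in FAPi libraries. DPBS replicates 2 and 3 lay below all FAPi values and DPBS replicate 1 among them. This gave a log2 difference of 0.35 ± 0.26, with an interval of -0.22 to 0.92 (adjusted p = 0.769, edgeR), and 0.21 (without DPBS replicate 3) to 0.61 (without DPBS replicate 1) when 1 library was left out. Podn, which encodes the collagen-binding protein podocan, had 45.9, 34.4 and 57.7 CPM in DPBS libraries. The FAPi libraries had 75.2, 41.6, 58.1 and 44.8 CPM, with FAPi replicate 1 highest and the rest within or near the DPBS range. Its log2 difference was 0.26 ± 0.37, with an interval of -0.55 to 1.07 (adjusted p = 0.913, edgeR), and 0.07 (without FAPi replicate 1) to 0.45 (without DPBS replicate 3) when 1 library was left out.

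**Figure D3:**
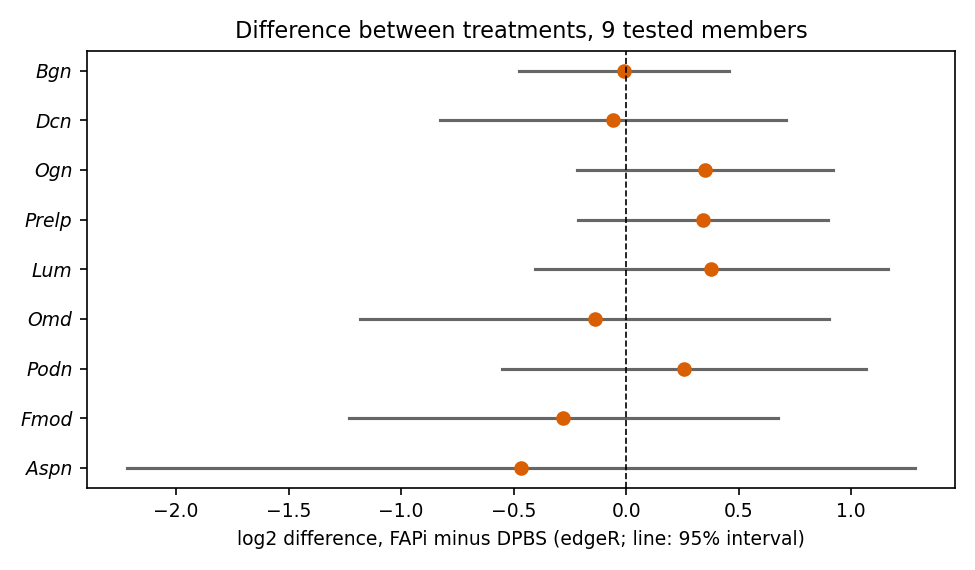
Log2 difference (FAPi minus DPBS) of the 9 tested genes with 95% intervals from edgeR's quasi-likelihood fit. Every interval spans 0, and the widest is that of Aspn, from -2.22 to 1.29.

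The members differed in how much they varied over the 7 libraries of both groups pooled. The SD of log2 CPM over the 7 libraries was 0.191 for Bgn and 1.25 for Aspn. Of 8569 genes with a mean of at least 10 CPM, 2.18% had a smaller SD than Bgn and 90% a smaller SD than Aspn. These genes were not matched on level, and Bgn averaged 1558 CPM and Aspn 15.1 CPM, so level and variability are not separated here. Prelp, Ogn, Fmod and Podn followed Bgn, with 7.81%, 12.2%, 16.1% and 17% of genes below them. The SD of Lum, Dcn and Omd was 0.462, 0.514 and 0.553. Aspn thus stood apart from the other 8 members, which lay between 0.191 and 0.553. The order was not the same within each group. Prelp was more even than Bgn relative to its mean in DPBS mice (199.5 ± 10.5 against 1563 ± 137 CPM, mean and SD) and less even in FAPi mice (253 ± 59.1 against 1554 ± 269 CPM).

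**Figure D4:**
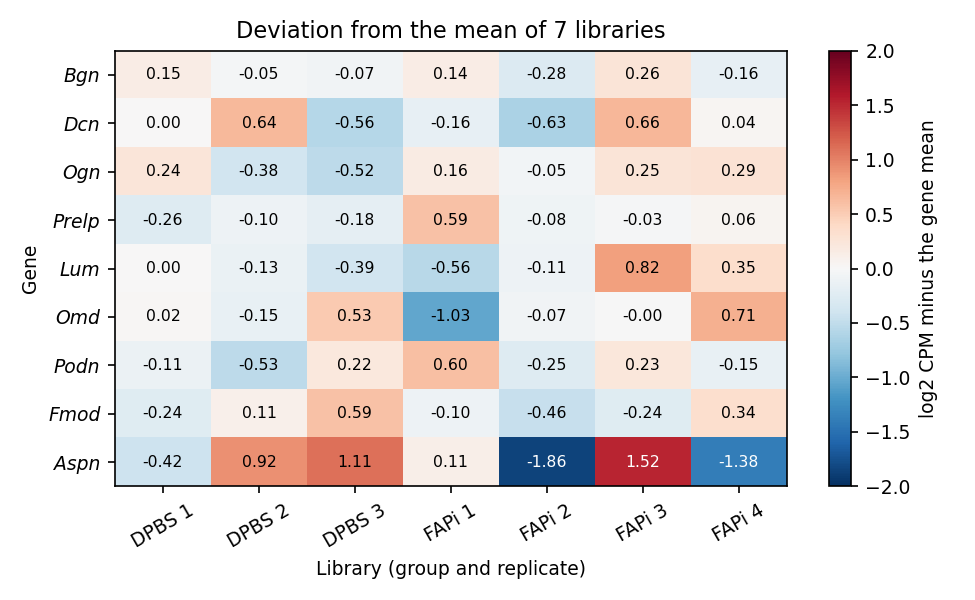
Log2 CPM of the 9 tested genes minus the mean of each gene over the 7 libraries, with red for higher and blue for lower values. Aspn runs from -1.86 in FAPi replicate 2 to 1.52 in FAPi replicate 3, while Bgn stays between -0.28 and 0.26.

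Genes of 1 chromosomal group did not keep a fixed ratio. Per length, Ogn was 4.45 to 21 times Omd and 7.2 to 77.8 times Aspn, although the 3 genes lie in a row. Omd exceeded Aspn in 6 of 7 libraries, by a ratio between 0.839 in FAPi replicate 3 and 10.2 in FAPi replicate 4. Dcn was 2.38 to 5.82 times Lum, and Prelp 5.53 to 15.2 times Fmod. Over all 36 pairs of tested members, 19 had a positive Pearson correlation of log2 CPM across the 7 libraries. None of the 36 pairs passed at an adjusted p under 0.05, nor at an unadjusted one (exact permutation over 5040 orderings). The largest positive one was Prelp with Podn (r = 0.649, exact permutation p = 0.12, adjusted p = 0.904, Spearman rho = 0.357, exact permutation p = 0.444). Without DPBS replicate 1 and FAPi replicate 1 its r was -0.083, and from deviations within groups it was 0.583. In these libraries Prelp lay farthest from its median, so leaving them out narrows its range and can lower r by itself. Dcn with Lum gave r = 0.593 (exact permutation p = 0.156, adjusted p = 0.904) and rho = 0.571 (exact permutation p = 0.2). Without DPBS replicate 2 and FAPi replicate 3 its r was 0.466, and from deviations within groups it was 0.651. The most negative was Omd with Prelp, at r = -0.691 (exact permutation p = 0.124, adjusted p = 0.904) and rho = -0.286 (exact permutation p = 0.556). Its r was -0.383 without FAPi replicates 1 and 4.

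The genes most like the 3 leading members were found by the smallest root mean square difference of centred log2 CPM over the 7 libraries, among 10465 genes with a mean of at least 5 CPM. For Bgn these were Igfbp7 (difference 0.0613), Wls (0.0826) and Tcirg1 (0.0993), beside an SD of 0.191 for Bgn itself. For Ogn they were Ubr3 (0.0708), Wbp4 (0.0918) and Ufm1 (0.0952), beside an SD of 0.328. For Dcn they were Mrps24 (0.167), Ggt7 (0.178) and Etfb (0.18), beside an SD of 0.514. This likeness describes 7 libraries and is not tested.

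Other genes of the family ranged from clearly detected to 0 counts. Of 9 listed, 5 passed the filter on low counts, and 0 were called in either direction (edgeR, and 0 at an unadjusted p under 0.05). Podnl1, of podocan's class, had 87.2, 79.9 and 81.8 CPM in DPBS and 189, 215, 127 and 45.4 CPM in FAPi libraries. Of the FAPi values 3 lay above all DPBS values and FAPi replicate 4 below them, with a log2 difference of 0.80 ± 0.45 (adjusted p = 0.695, edgeR), or 0.52 without FAPi replicate 2. Tsku, which encodes tsukushi, averaged 60.04 ± 5.02 CPM without and 75.5 ± 17.8 CPM with the inhibitor (mean and SD). Chadl, which encodes a relative of chondroadherin, had 2.35 ± 2.39 and 1.19 ± 1.63 CPM. Epyc, which lies beyond Kera on chromosome 10, had 12 counts in DPBS replicate 3 and 0 in the other libraries, and Nyx and Nepn had 0 in all 7. Optc, which lies near Prelp on chromosome 1, had 6, 19 and 41 counts in DPBS and 5, 2, 6 and 7 counts in FAPi libraries and did not pass the filter.

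The enzymes that build the glycosaminoglycan chains did not pass the threshold either. Of 22 listed genes for chondroitin and dermatan sulfate, 19 were tested, 14 with a higher and 5 with a lower estimate and a median log2 difference of 0.33, against 0.01 over all tested genes. At an unadjusted p under 0.05, 3 were higher and 1 lower, and 0 were called (edgeR). Groups did not overlap at 4 of the 19. For this list and those below, the shares over all genes are 8.14% at an unadjusted p under 0.05 and 7.34% without overlap. Chsy1, a chain polymerase, had 938, 988 and 1386 CPM in DPBS and 1398, 2443, 1817 and 1988 CPM in FAPi libraries. The lowest FAPi value lay just above the highest DPBS value, and the log2 difference was 0.79 ± 0.25 (adjusted p = 0.49, edgeR). B3gat3, which completes the linker between protein and chain, had 28.1 ± 9.18 CPM (SD, n = 3) and 52.4 ± 10.5 CPM (SD, n = 4), with a log2 difference of 0.90 ± 0.39 (adjusted p = 0.582, edgeR). Chst15, a chondroitin sulfotransferase, had 112.9 ± 31.4 and 67.3 ± 15.2 CPM, with a log2 difference of -0.75 ± 0.32 (adjusted p = 0.582, edgeR).

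For keratan sulfate, 6 of 7 listed genes were tested, 5 with a higher estimate and a median of 0.48, and 0 were called (edgeR, 1 at an unadjusted p under 0.05). B4galt1, a galactosyltransferase, had 930.1, 1091 and 1383 CPM in DPBS and 1361, 3225, 1940 and 1550 CPM in FAPi libraries. The groups overlapped through FAPi replicate 1, and the log2 difference was 0.83 ± 0.31 (adjusted p = 0.534, edgeR), or 0.50 without FAPi replicate 2. Chst2, a sulfotransferase, was highest in FAPi replicate 2 at 991 CPM, and its log2 difference of 0.99 was 0.18 without that library.

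Collagens bound by the family had 14 of 14 genes tested, 11 with a higher estimate and a median of 0.19, and 0 called (edgeR, 2 at an unadjusted p under 0.05). Col1a2, a chain of type I collagen and the most abundant of them, had 3161 ± 955.8 CPM (SD, n = 3) and 3006 ± 181.5 CPM (SD, n = 4). Col6a3, a chain of type VI collagen, had 50.97 ± 8.61 and 90.4 ± 33.1 CPM, and Col2a1, the cartilage collagen, 9.91 ± 7.49 and 28.5 ± 17.3 CPM. Of 13 proteases that cleave the family or its collagen partners, 11 were tested, 5 higher and 6 lower, with a median of -0.02 and 0 called (edgeR, 0 at an unadjusted p under 0.05). Pcolce, an enhancer of procollagen cleavage, had 554 ± 11.4 and 545 ± 57.8 CPM. Bmp1, the enzyme that it enhances and that also trims biglycan, had 176.5 ± 1.32 and 194.5 ± 79.7 CPM.

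Ligands and receptors bound by the family had 13 of 14 genes tested, 6 higher and 7 lower, with a median of -0.19 and 0 called (edgeR, 1 at an unadjusted p under 0.05). Bmp2, a bone morphogenetic protein, had 21.4, 28.3 and 9.14 CPM in DPBS and 6.03, 4.52, 11.8 and 5.17 CPM in FAPi libraries. The groups overlapped through DPBS replicate 3 and FAPi replicate 3, with a log2 difference of -1.51 ± 0.61 (adjusted p = 0.565, edgeR). Tgfb2, a TGF-beta ligand, had 16.5 ± 3.73 and 6.48 ± 6.93 CPM, and Bmp4, the list's most abundant gene, 387 ± 176 and 318.5 ± 112 CPM.

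Other proteoglycan core proteins had 14 of 19 genes tested, 7 higher and 7 lower, with a median of -0.01 and 0 called (edgeR, 2 at an unadjusted p under 0.05). Groups did not overlap at 4 of the 14, Sdc4 and Hspg2 (FAPi higher) and Srgn and Sdc1 (FAPi lower), against 7.34% of all genes. In the lists above, this held for 4 of 19 tested chondroitin and dermatan sulfate genes and 1 of 11 proteases (Adamts4, FAPi higher). The count was 0 of 5 for other family genes and 0 of 6 for keratan sulfate. It was 0 of 14 for collagens and 0 of 13 for ligands and receptors. Sdc4, which encodes the heparan sulfate proteoglycan syndecan 4, had 1003, 1165 and 1133 CPM in DPBS and 1445, 3174, 2089 and 2148 CPM in FAPi libraries. Every FAPi value lay above every DPBS value, and the log2 difference was 1.01 ± 0.27 (adjusted p = 0.469, edgeR). Srgn, which encodes serglycin, a proteoglycan of blood cell granules, had 26.8, 67.4 and 48.6 CPM in DPBS and 14.6, 12.4, 24.8 and 21.5 CPM in FAPi libraries. Its groups did not overlap either, with a log2 difference of -1.38 ± 0.45 (adjusted p = 0.49, edgeR). The neutrophil markers given above were also lower in the FAPi libraries and highest in DPBS replicate 2. With the mean of the erythroid, neutrophil and B cell markers as a covariate, the log2 difference of Srgn was -1.31. The part of neutrophils alone in the values of Srgn was not tested.

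**Figure D5:**
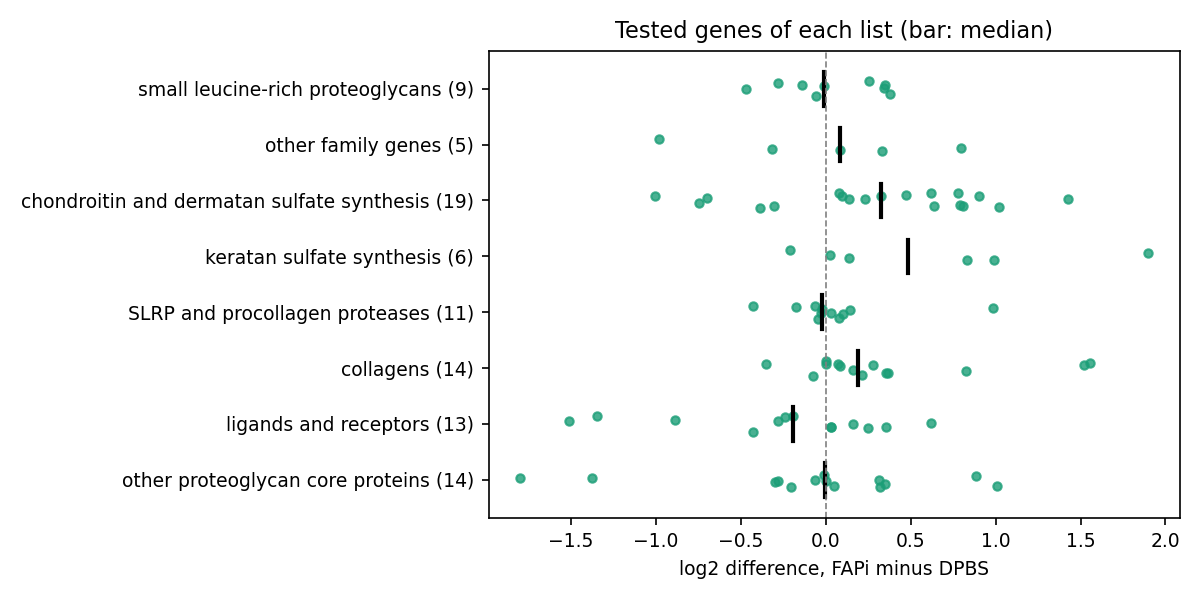
Log2 difference (FAPi minus DPBS) of every tested gene of each list, 1 point per gene, with the median as a black bar and the number tested in parentheses. The 9 small leucine-rich proteoglycans lie between -0.47 and 0.38 around a median of -0.01, and the keratan sulfate list has the highest median, 0.48.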

How the data were processed

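The authors deposited a whole-number count per Ensembl gene and a CPM value for each library. The submitters' processing notes list STAR, HTSeq and mm10 with no version. Annotation, strand setting and any removal of duplicates were not stated there. Libraries followed a modified Smart-seq2 protocol with paired reads, per the labels' protocols. The deposited CPM equal counts per total count to within 4.55e-05, and lines repeated at the end of 6 CPM tables were dropped. Symbols, coordinates and exon lengths come from GENCODE M21, which matched 53620 of 53801 identifiers.

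Counts were fitted in R 4.3.3 with edgeR 4.0.16 (filterByExpr with a minimum count of 10, TMM scaling, robust glmQLFit and glmQLFTest, Benjamini-Hochberg over 12930 genes). CPM in the text are TMM-normalised. SE is the absolute log2 fold change over the root of F, and intervals use the t distribution with the fit's degrees of freedom. DESeq2 1.42.0, limma 3.58.1 and other settings were alternatives. The functions were tested on simulated data. No 2 libraries agreed within sampling noise. Every member is described, and from each other list up to 3 genes by smallest p and the most abundant could be named. Genes and lists were chosen with earlier results of these data known.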

Additional observations from a re-analysis of the deposited data

Results flagged for a closer look

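In the FAPi group, 46 values (9 of them members) were checked for 1 library far from the other 3, and 9 were marked, none of them a member. Prelp came closest among the members, with FAPi replicate 1 at 340.4 CPM, just short of the mark. Chance marks about 1 in 20, or 2.3. The gene values were Chadl at 3.63 CPM in FAPi replicate 4, Mmp9 at 14.5 CPM in FAPi replicate 2, Col1a2 at 2737 CPM, the lowest, in FAPi replicate 1, and Dpt at 60.1 CPM and Tnmd at 5.01 CPM in FAPi replicate 3. Dpt and Tnmd had been singled out for that library, so their marks add nothing. The summed markers were those of chondrocytes at 192.9 CPM (highest) and neutrophils at 193.8 CPM (lowest) in FAPi replicate 4, and those of endothelial cells at 366 CPM and B cells at 304 CPM in FAPi replicate 1. The endothelial sum rested on Kdr, at 340.3 CPM in that library against 3.17 to 15.5 CPM in the others. None of Pecam1, Cdh5, Tek, Emcn and Vwf was highest there.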

How the results depend on the processing

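In none of the alternatives run was a member called, and the lowest adjusted p of any member was 0.614. Of the 9 tested members, 6 kept the sign of their difference in all 19 refits. Over all genes edgeR called 0 higher and 0 lower (1053 at an unadjusted p under 0.05). DESeq2 called 84 higher and 51 lower (663 adjusted p-values NA), edgeR with no low-count filter 5 and 1, voom weights 1 and 0, limma fitted to CPM with a pseudocount of 1 or 0.25 4 and 2, and a threshold of 0.1 1 and 0. With 1 library omitted, between 0 and 2 genes were higher and between 0 and 1 lower, and calls appeared where DPBS replicate 3 was omitted. Scaling by total counts alone moved the median of all genes from 0.01 to -0.16 and that of the members from -0.01 to -0.18. A change of scaling shifts all genes of a library alike, so the like move of the members was fixed by the method.

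The cause of the sign changes was not tested. With voom weights Dcn gave 0.0066. With the blood markers as covariate Dcn gave 0.35, Bgn 0.0576 and Bmp4 0.14. Other genes kept their sign with this covariate but moved, among them Omd from -0.14 to -0.66, Col2a1 from 1.52 to 0.76 and Bmp2 from -1.51 to -0.85. Without both DPBS replicate 2 and FAPi replicate 3, an omission chosen after seeing the data, Dcn gave 0.0322, Chadl 0.53 and Bmp1 -0.16. RLE scaling gave 0.0227 for Bgn and 0.009 for Pcolce, and DESeq2 0.0228 and 0.009. Bmp1 gave -0.0158 with total counts alone and -0.12 with limma on CPM at either pseudocount. The replicate block gave 0.0294 for Bgn and -0.50 for Omd. It changed no call of a member, with 718 genes at an unadjusted p under 0.05. Same-numbered libraries did not deviate together (correlations -0.01, -0.02 and -0.05). With so few libraries, each centred on its group mean, these values cannot exclude a shared cage, litter or preparation day.

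Leaving out 1 library gave -0.33 to 0.30 for Dcn, -0.10 to 0.0623 for Bgn, -0.45 to 0.0894 for Omd, -1.50 to 0.19 for Chadl, -0.16 to 0.31 for Bmp1, -0.0774 to 0.014 for Pcolce, -0.21 to 0.20 for Col1a2, -0.59 to 0.061 for Bmp4 and -2.31 to 0.54 for Cspg4. The share of counts in the members became 0.404% in DPBS and 0.385% in FAPi mice without the 10 most abundant genes. At this depth Kera was near or under the floor of 3 counts in most libraries, so no difference in it could be measured.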
